A study of Homo sapiens with 60 samples.

Results

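The genes described here are 5 CXC chemokine genes (CXCL1, CXCL2, CXCL3, CXCL5 and CXCL8) and 5 target or feedback genes of the transcription factor NF-kB (NFKBIA, NFKB2, TNFAIP2, TNFAIP3 and BIRC3). They are 10 of the 60675 Ensembl genes in the table, and each was followed in all 20 treatment groups. CXCL8, CXCL5, TNFAIP2 and BIRC3 were chosen by their measured levels, which differ between treatments, so their levels and fold changes are given as a description with no test. The other 6 genes belong to the same family or feedback loop, and they were tested. All 10 passed the filter on low counts, which kept 17368 genes.

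RNA was measured in A549, an established line of human lung carcinoma cells, in 60 libraries that form 20 groups of 3, all taken 24 h after treatment. The Vehicle group received dimethyl sulfoxide (0.1% in the sample labels, 2% in the series design text), and the Wortmannin group received 10 µM of wortmannin, an inhibitor of phosphoinositide 3-kinases. The other 18 groups received hot-water extracts of 6 medicinal plants at 500, 100 or 20 µg/mL each. These were Liriopis seu Ophiopogonis Tuber, Schisandrae Fructus, Longan Arillus, Zizyphi Semen, Polygalae Radix and Aucklandiae Radix, called below by their first word and dose. The labels of the treated groups give no dimethyl sulfoxide level, and the design text mentions lower doses for toxic extracts while every label states these 3 doses. Nothing states that the 3 replicates of a group are separate cultures, so p-values measure the spread between these libraries, which may be technical.

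Depth was 17.7 to 30.6 M counts per library. The first part of the library names, read as a library set, separates Vehicle, Wortmannin, Liriopis with Schisandrae, Longan with Zizyphi, and Polygalae with Aucklandiae. No label says what these sets are, and against Vehicle a treatment and a set difference cannot be told apart. The labels give a dimethyl sulfoxide level for Vehicle alone, so a difference of solvent cannot be told apart there either. Comparisons inside a set use no Vehicle library and do not have the limit of the set. Polygalae 20 replicate 1 stood apart from its group more than any other library (root mean square deviation of log2 values 0.381, median library 0.277), and counts of calls that it moves by over 1.5 times are given with and without it. Replicates 2 and 3 of Polygalae 20 came next, at 0.334 and 0.324. The epithelial markers KRT8 (2870 to 4160 CPM) and KRT18 (2180 to 3210 CPM) were high in all libraries, where CPM is counts scaled to a common library depth. The rest of the epithelial list was far lower, with KRT19 at 22.9 to 44.4, CDH1 at 26.4 to 35.9 and EPCAM at 3.65 to 6.37 CPM. Defining markers of alveolar type II cells (SFTPC, at most 0.164 CPM), endothelium (PECAM1, at most 0.316 CPM), leukocytes (PTPRC, at most 0.0925 CPM) and fibroblasts (DCN, at most 0.125 CPM) were at or near 0. Other genes of these marker lists were present in every library. They were ABCA3 (20.5 to 54.4 CPM), CD14 (1.64 to 4.91 CPM), COL1A1 (18.4 to 34.5 CPM), COL3A1 (3.47 to 7.03 CPM) and LUM (0.231 to 0.836 CPM). These are bulk samples, in which fewer cells of a kind and less RNA per cell cannot be told apart.

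NF-kB is a family of dimeric transcription factors held in the cytoplasm by inhibitors of the IkB family and released when cytokine, Toll-like or stress receptors activate the IkB kinases. Among its targets are the CXC chemokines with an ELR motif, secreted proteins that draw neutrophils through the receptors CXCR1 and CXCR2, and the genes of its own brakes. NFKBIA encodes IkB-alpha, which binds NF-kB and ends the response. TNFAIP3 encodes A20, a ubiquitin-editing enzyme that shuts off signalling upstream of the kinases. NFKB2 encodes p100, the precursor of the p52 subunit, and BIRC3 encodes cIAP2, a ubiquitin ligase in receptor complexes of the tumour necrosis factor family. TNFAIP2 is a gene induced by tumour necrosis factor.

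The 5 chemokine genes lie in a cluster on chromosome 4 (GRCh38, GENCODE 29): CXCL8 (ENSG00000169429) at chr4:73740506-73743716 and CXCL1 (ENSG00000163739) at chr4:73869393-73871242 on the plus strand, and CXCL5 (ENSG00000163735) at chr4:73995642-73998779, CXCL3 (ENSG00000163734) at chr4:74036589-74038807 and CXCL2 (ENSG00000081041) at chr4:74097035-74099293 on the minus strand. NFKBIA (ENSG00000100906) lies at chr14:35401511-35404749 on the minus strand. The plus strand holds NFKB2 (ENSG00000077150) at chr10:102394110-102402529, TNFAIP2 (ENSG00000185215) at chr14:103123442-103137439, TNFAIP3 (ENSG00000118503) at chr6:137867188-137883312 and BIRC3 (ENSG00000023445) at chr11:102317450-102339403. All are protein-coding.

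The promoter sequences are shown because the 5 chemokine genes carry the same run of letters close to their starts. RefSeq windows (GRCh38.p14) from 250 bases before to 50 after the start were used, and all 10 genes had at least 1. The longest run of letters found in all 5 chemokine windows was GGAATTTCC, 9 bases long. It was then looked for on both strands of all windows, as was the kB consensus of 10 bases, which can overlap it. The consensus was GGGRNWYYCC, where R is A or G, N any base, W is A or T, and Y is C or T. Each line gives 1 match with 10 bases on either side, 5′ to 3′ on the gene's strand. Coordinates cover all letters of a line, while distances cover the capitals alone and count from the RefSeq start. That start can differ from the GENCODE 29 start, as for CXCL8 (73740569 in RefSeq, 73740506 in GENCODE). Some matches therefore lie inside the GENCODE spans given above. NFKB2, TNFAIP3 and BIRC3 had further consensus matches, and the one with the lowest coordinate is printed. Capitals mark the shared run for the chemokines and NFKBIA, where it reads on the other strand, and the kB consensus for the other 3 genes.
CXCL1, chr4:73869305-73869333, plus strand, 78 to 70 bases before the start: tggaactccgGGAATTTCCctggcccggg
CXCL2, chr4:74099254-74099282, minus strand, 77 to 69 bases before the start: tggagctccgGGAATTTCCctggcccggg
CXCL3, chr4:74038749-74038777, minus strand, 78 to 70 bases before the start: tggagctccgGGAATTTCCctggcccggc
CXCL5, chr4:73998749-73998777, minus strand, 90 to 82 bases before the start: atgagttcagGGAATTTCCccagcatccc
CXCL8, chr4:73740468-73740496, plus strand, 91 to 83 bases before the start: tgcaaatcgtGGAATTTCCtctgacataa
NFKBIA, chr14:35404812-35404840, minus strand, 81 to 73 bases before the start: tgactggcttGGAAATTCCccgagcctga
NFKB2, chr10:102394461-102394490, plus strand, 107 to 98 bases before the start: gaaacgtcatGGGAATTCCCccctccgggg
TNFAIP3, chr6:137867182-137867211, plus strand, 67 to 58 bases before the start: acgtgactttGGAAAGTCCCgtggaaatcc
BIRC3, chr11:102317275-102317304, plus strand, 199 to 190 bases before the start: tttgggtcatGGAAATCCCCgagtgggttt

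The shared run stood in 0.461% of all 35116 windows (162 windows). The chemokines hold it by the way it was found, and among the other 5 genes NFKBIA held it. The kB consensus matched in 8 of the 10 genes, all except CXCL8 and TNFAIP2, and in 7.09% of all 27305 genes with a window. Neither form occurred in the TNFAIP2 window. A match describes letters and says nothing about binding in these cells.

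Per length, TNFAIP2 was the most abundant of the 10 in Vehicle, at 63.1 CPM per kb of exon, followed by CXCL5 (22.2), NFKBIA (19.2), NFKB2 (10.9) and BIRC3 (3.87). CXCL2 (1.46), TNFAIP3 (1.04), CXCL1 (0.734), CXCL3 (0.590) and CXCL8 (0.353 CPM per kb) were far lower. CXCL1, CXCL2, CXCL3 and CXCL8 had at most 90 counts in any library, so the counting error of these genes is large. The receptor genes CXCR1 and CXCR2 had 0 counts in 57 and 41 of the 60 libraries, and at most 1 and 2 counts in the others.

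**Figure D1:**
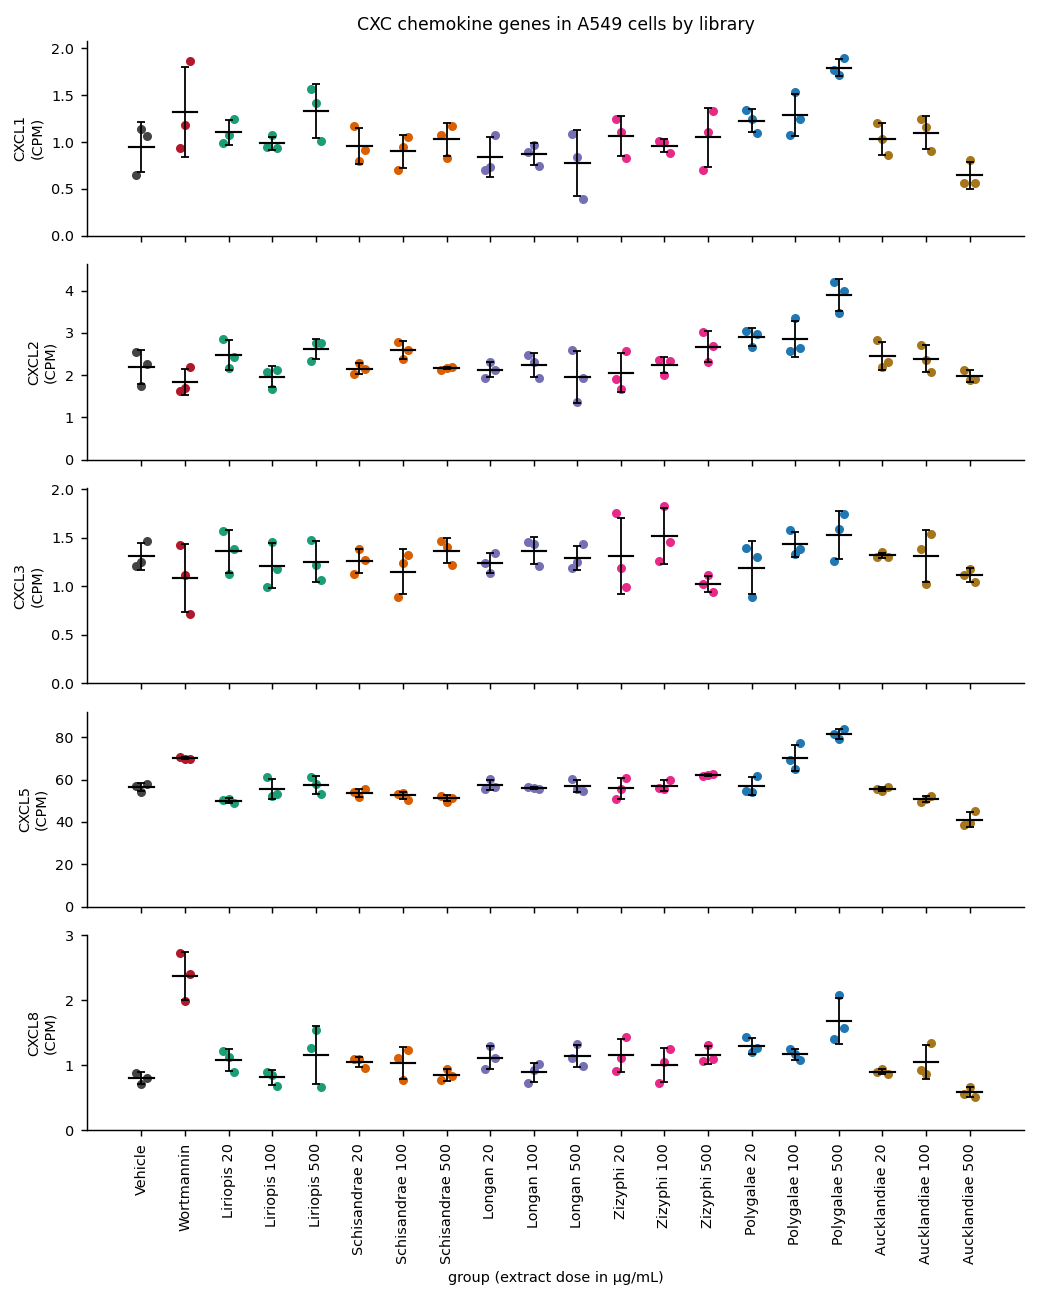
Levels of the 5 chemokine genes in CPM (vertical axes, each panel with its own scale) in each of the 60 libraries, arranged by treatment group, with points for libraries, horizontal lines for group means and error bars of 1 SD. CXCL5 is highest in Polygalae 500 (79.0 to 83.7 CPM) and lowest in Aucklandiae 500 (38.5 to 45.0 CPM), and CXCL8 is highest in Wortmannin (1.99 to 2.73 CPM).

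CXCL8 encodes interleukin-8, a major neutrophil chemokine of human epithelium. In Vehicle its level was 0.889, 0.714 and 0.807 CPM in replicates 1, 2 and 3 (20 to 22 counts). In Wortmannin it was 2.73, 1.99 and 2.40 CPM (54 to 79 counts), the highest mean of the 20 groups. All 3 Wortmannin libraries lay above all 3 Vehicle libraries, with a fitted log2 difference of 1.56 ± 0.21 (SE of the model). Polygalae 500 came next with 1.40, 2.08 and 1.58 CPM (log2 difference 1.08 ± 0.22 against Vehicle), and its range overlapped that of Wortmannin. Aucklandiae 500 was lowest with 0.562, 0.673 and 0.520 CPM, the only group wholly below Vehicle (-0.44 ± 0.26). The means of 18 of the 19 treated groups were above that of Vehicle, and 10 groups lay above it without overlap, which 5.64% of all tested genes matched or exceeded. All 19 comparisons use the same 3 Vehicle libraries, which form a library set of their own.

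CXCL5 encodes a chemokine made mainly by epithelial cells. It stood at 57.0, 54.1 and 57.7 CPM in Vehicle and at 81.5, 79.0 and 83.7 CPM in Polygalae 500, a log2 difference of 0.53 ± 0.06. Polygalae 100 held 69.0, 64.8 and 77.0 CPM, below every Polygalae 500 library and above every Vehicle library. Polygalae 20, at 54.8, 54.0 and 61.6 CPM, overlapped Vehicle. Aucklandiae ran the other way, at 55.6, 54.6 and 56.3 CPM for 20 µg/mL, 49.2, 50.7 and 52.0 CPM for 100 µg/mL, and 38.5, 39.7 and 45.0 CPM for 500 µg/mL. The 3 Aucklandiae doses did not overlap each other, and Aucklandiae 500 was below all libraries of the other 19 groups. Per 5-fold step of dose the slope was 0.26 ± 0.03 in log2 for Polygalae and -0.22 ± 0.03 for Aucklandiae, both within 1 library set. Wortmannin held 70.5, 69.8 and 69.9 CPM, above all Vehicle libraries and inside the range of Polygalae 100. Of the 19 treated groups, 4 lay above Vehicle without overlap (Wortmannin, Polygalae 500, Polygalae 100 and Zizyphi 500) and 5 below it (Aucklandiae 500, Aucklandiae 100, Liriopis 20, Schisandrae 500 and Schisandrae 100), where the median over all genes tested was 1 group above and 1 below.

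CXCL1 and CXCL2, close paralogues that encode the GRO-alpha and GRO-beta chemokines, rose in Polygalae 500. CXCL1 was 0.647, 1.14 and 1.06 CPM in Vehicle (16 to 32 counts) and 1.77, 1.71 and 1.89 CPM in Polygalae 500 (36 to 42 counts), so the groups did not overlap. The log2 change was 0.90 ± 0.24 (edgeR's quasi-likelihood test with Benjamini-Hochberg adjustment over 17368 genes, adjusted p = 0.0041, n = 3 each). CXCL2 went from 2.55, 1.75 and 2.27 CPM to 4.20, 3.47 and 4.00 CPM, again without overlap, a log2 change of 0.83 ± 0.16 (edgeR adjusted p = 4.6e-05). CXCL3, the paralogue that encodes GRO-gamma, was 1.21, 1.25 and 1.47 CPM in Vehicle and 1.26, 1.59 and 1.74 CPM in Polygalae 500, with overlapping groups and a log2 difference of 0.22 ± 0.20 that did not pass (edgeR adjusted p = 0.51). CXCL2 and CXCL3 share 79 windows of 100 identical bases (5.0% and 3.27% of their windows), so a few reads could belong to either, while CXCL1 shares none. The sum of the 3 genes rose by 0.69 in log2 (edgeR adjusted p = 3.7e-07). Without Vehicle replicate 1, the lowest CXCL1 library of that group, the CXCL1 change was 0.70 and did not pass (edgeR adjusted p = 0.052).

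Among the feedback genes in Polygalae 500, TNFAIP3 rose and NFKBIA and NFKB2 did not pass. TNFAIP3 was 5.34, 5.43 and 5.06 CPM in Vehicle and 7.83, 7.59 and 8.31 CPM in Polygalae 500, its highest group, a log2 change of 0.58 ± 0.10 without overlap (edgeR adjusted p = 8.2e-06). NFKBIA (45.1, 46.0 and 45.3 CPM against 44.4, 43.7 and 51.7 CPM) and NFKB2 (47.9, 46.5 and 51.8 CPM against 46.5, 49.4 and 49.2 CPM) overlapped, with log2 differences of 0.03 ± 0.06 and -0.01 ± 0.06. TNFAIP3 has exons that overlap those of AL357060.1 on the other strand, and the strand setting of the counting is not given in the sources used here. In all, 3 of the 6 tested genes rose and 0 fell in Polygalae 500, where 10.4% of all genes tested rose and 9.48% fell. The median log2 difference of the 6 was 0.40, beside 0.001 over all genes tested.

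Levels of markers moved in the same comparison. The summed level of 5 epithelial markers, carried almost wholly by KRT8 and KRT18, was 5110 to 5390 CPM in Polygalae 500 and 6300 to 6650 CPM in Vehicle. The sum of 5 fibroblast markers was 22.3 to 29.6 CPM against 34.0 to 34.3 CPM, carried by collagen genes such as COL1A1, while DCN had 0 counts in 47 of the 60 libraries. The sum of 5 blood and macrophage markers was 2.01 to 2.31 CPM against 2.47 to 2.61 CPM. Their part in the chemokine result was not tested.

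At each of the lower Polygalae doses 1 of the 6 tested genes passed. In Polygalae 100, TNFAIP3 alone of the 6 rose, at 6.27, 5.32 and 7.52 CPM, where replicate 2 lay inside the Vehicle range (log2 change 0.29 ± 0.10, edgeR adjusted p = 0.046). Of all genes tested, 7.51% rose and 5.27% fell there. This call was lost with no filter on low counts (edgeR adjusted p = 0.15), with DESeq2 (adjusted p = 0.083), with the 6 libraries alone (edgeR adjusted p = 0.076) and with the replicate number as a block (edgeR adjusted p = 0.051). CXCL2, at 2.57, 3.35 and 2.63 CPM in Polygalae 100, lay above all 3 Vehicle libraries but did not pass (0.37 ± 0.16, edgeR adjusted p = 0.13). The sum of CXCL1, CXCL2 and CXCL3 was higher there by 0.31, which passed (edgeR adjusted p = 0.037). In Polygalae 20, NFKBIA alone of the 6 rose (0.18 ± 0.06, edgeR adjusted p = 0.027), where 6.59% of all genes tested rose and 5.53% fell (2106 genes in all). Its libraries held 57.4, 50 and 47.2 CPM, all above Vehicle, and replicate 1, the library that stood apart, was the highest. Without that library the log2 difference was 0.10 (edgeR adjusted p = 0.38), and edgeR called 654 genes in all. In a fit of only the 6 libraries compared, NFKBIA did not pass either (edgeR adjusted p = 0.38), and edgeR called 3 genes in all.

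**Figure D2:**
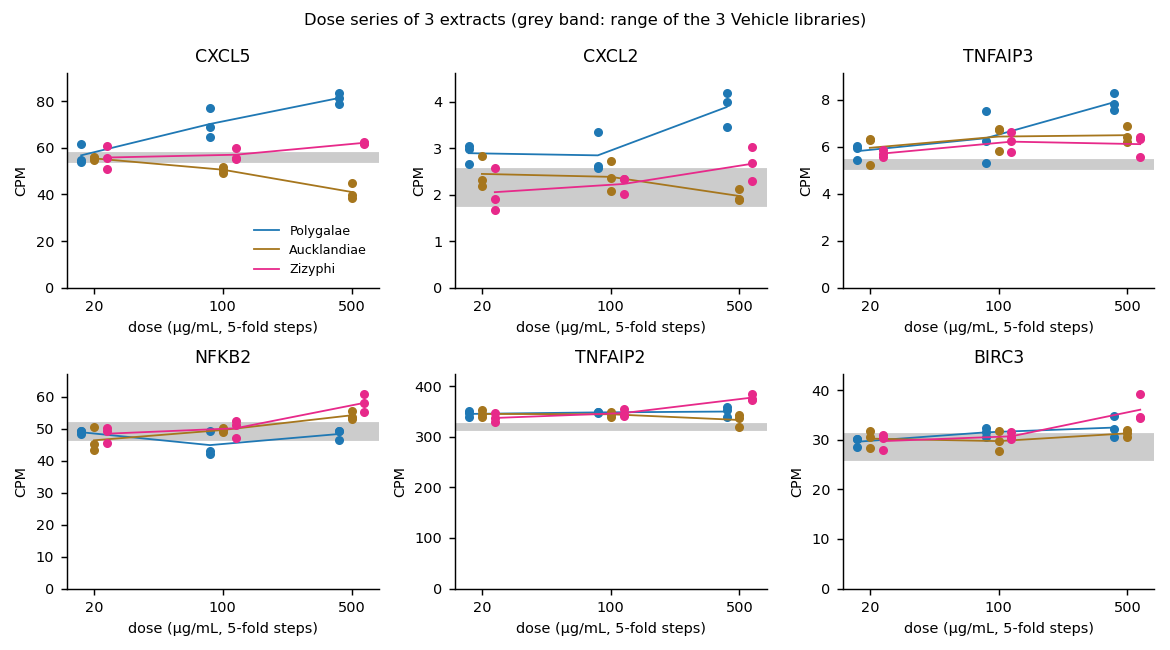
Levels of CXCL5, CXCL2, TNFAIP3, NFKB2, TNFAIP2 and BIRC3 in CPM (vertical axes) at 20, 100 and 500 µg/mL (horizontal axes, equal spacing for 5-fold steps) of Polygalae, Aucklandiae and Zizyphi, with points for libraries, lines through group means and a grey band for the range of the 3 Vehicle libraries. The CXCL5 means go from 56.8 to 81.4 CPM over the Polygalae doses and from 55.5 to 41.0 CPM over the Aucklandiae doses, and those of NFKB2 from 48.5 to 58.2 CPM over the Zizyphi doses.

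Within the set of 9 Polygalae libraries, with no Vehicle library, TNFAIP3 rose with dose by 0.22 ± 0.06 in log2 per 5-fold step (edgeR adjusted p = 0.049). It was 1 of the 6 tested genes, and 2.92% of all genes tested rose and 2.02% fell with dose (858 genes in all, and 1433 without Polygalae 20 replicate 1). CXCL1 (0.28 ± 0.10, edgeR adjusted p = 0.13) and CXCL2 (0.21 ± 0.08, edgeR adjusted p = 0.15) did not pass. The TNFAIP3 call was lost when any Polygalae 500 library, or Polygalae 20 replicate 2 or 3, was left out (edgeR adjusted p = 0.072 to 0.16).

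Polygalae and Aucklandiae, which share a library set, differed from each other at 500 µg/mL in 4 of the 6 tested genes, 3 higher and 1 lower in Polygalae, where 8.20% of all genes tested were higher and 7.04% lower. CXCL1 was 0.562, 0.807 and 0.563 CPM in Aucklandiae 500, below each of the Polygalae 500 libraries, and the log2 difference was 1.45 ± 0.26 (edgeR adjusted p = 1.6e-05). CXCL2 was 2.13, 1.88 and 1.91 CPM in Aucklandiae 500, also without overlap, with a difference of 0.97 ± 0.16 (edgeR adjusted p = 3.7e-06). The sum of CXCL1, CXCL2 and CXCL3 differed by 0.94 (edgeR adjusted p = 2.3e-10). CXCL3 alone, at 1.12, 1.18 and 1.04 CPM in Aucklandiae 500, differed by 0.45 ± 0.21 and did not pass (edgeR adjusted p = 0.15), though its libraries did not overlap with those of Polygalae 500. For the picked genes CXCL5 and CXCL8 the differences were 0.99 ± 0.06 and 1.52 ± 0.24.

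For the feedback genes, the calls between these extracts depended on single libraries. TNFAIP3 was 6.87, 6.22 and 6.41 CPM in Aucklandiae 500 and higher by 0.28 ± 0.10 in Polygalae 500 (edgeR adjusted p = 0.041), a call that was lost in 5 of 6 fits with 1 library left out (edgeR adjusted p = 0.052 to 0.15), with no filter (edgeR adjusted p = 0.14) and with DESeq2 (adjusted p = 0.078). NFKB2, at 53.2, 53.8 and 55.7 CPM in Aucklandiae 500, was lower in Polygalae 500 by a log2 difference of -0.16 ± 0.06 (edgeR adjusted p = 0.039), and this call was lost whichever of the 6 libraries was left out (edgeR adjusted p = 0.055 to 0.17). NFKBIA did not pass (0.01 ± 0.06). This contrast uses no Vehicle library. Markers moved with it: the epithelial sum was 5110 to 5390 CPM in Polygalae 500 and 5560 to 5770 CPM in Aucklandiae 500, and the fibroblast sum was 22.3 to 29.6 CPM against 35.0 to 37.1 CPM, both without overlap. The blood and macrophage sum did not overlap either, at 2.01 to 2.31 CPM against 2.41 to 2.6 CPM. Their part in the chemokine difference was not tested.

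Against Vehicle, 0 of the 6 tested genes passed edgeR's test in Aucklandiae 500, 3 had an unadjusted p under 0.05 (CXCL1, NFKB2 and TNFAIP3) and DESeq2 called 0, where by edgeR 2.24% of all genes tested rose and 2.69% fell (857 genes in all, and 1300 without Polygalae 20 replicate 1). In a fit of only the 6 libraries concerned, NFKB2 (0.15, edgeR adjusted p = 0.013) and TNFAIP3 (0.30, edgeR adjusted p = 0.047) passed. In the full fit NFKB2 was higher than Vehicle by 0.15 ± 0.06 (edgeR adjusted p = 0.092) and TNFAIP3 by 0.30 ± 0.10 (edgeR adjusted p = 0.069), each without overlap of the libraries. CXCL1 was at -0.55 ± 0.27 (edgeR adjusted p = 0.26) and CXCL2 at -0.15 ± 0.17, both overlapping Vehicle. CXCL3, at 1.12, 1.18 and 1.04 CPM, lay below all 3 Vehicle libraries and did not pass (-0.23 ± 0.21, edgeR adjusted p = 0.60). The epithelial sum in Aucklandiae 500 lay below the 6300 to 6650 CPM of Vehicle, the fibroblast sum above its 34.0 to 34.3 CPM, and the alveolar sum (26.7 to 29.4 CPM) above its 25.9 to 26.4 CPM; their part in these values was not tested. Over the 3 Aucklandiae doses NFKB2 rose by 0.12 ± 0.02 per 5-fold step (edgeR adjusted p = 0.0064), from 43.4, 45.3 and 50.5 CPM at 20 µg/mL through 49.5, 49.1 and 50.3 CPM at 100 µg/mL. It was 1 of the 6 tested genes, and 0.219% of all genes tested rose and 0.749% fell with that dose.

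**Figure D3:**
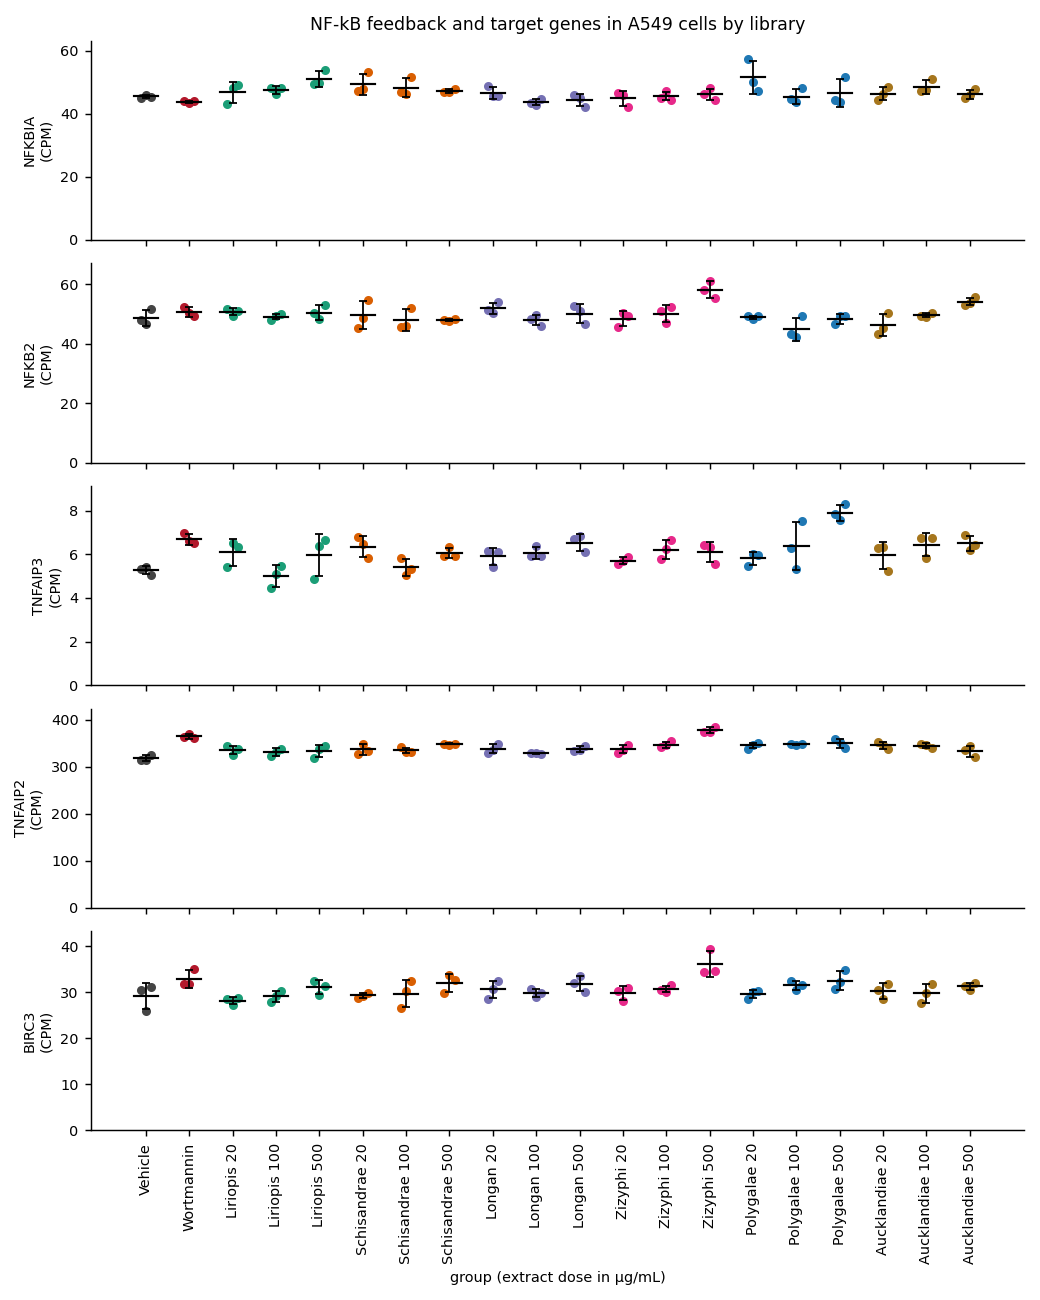
Levels of NFKBIA, NFKB2, TNFAIP2, TNFAIP3 and BIRC3 in CPM (vertical axes, each panel with its own scale) in each of the 60 libraries by treatment group, with points for libraries, horizontal lines for group means and error bars of 1 SD. NFKB2, TNFAIP2 and BIRC3 have their highest means in Zizyphi 500 (58.2, 378 and 36.1 CPM), and TNFAIP3 has its highest in Polygalae 500 (7.91 CPM).

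In Zizyphi 500, NFKB2 was the 1 tested gene of the 6 that rose, where 0.898% of all genes tested rose and 0.915% fell (315 genes in all, and 526 without Polygalae 20 replicate 1). Its libraries held 58.1, 61.0 and 55.3 CPM, above the 47.9, 46.5 and 51.8 CPM of Vehicle, a log2 change of 0.25 ± 0.06 (edgeR adjusted p = 0.0056). The call was lost without Vehicle replicate 2 (0.22, edgeR adjusted p = 0.078) and without Zizyphi 500 replicate 2 (0.22, edgeR adjusted p = 0.058). Within the 9 Zizyphi libraries NFKB2 rose by 0.13 ± 0.03 per 5-fold step of dose (edgeR adjusted p = 0.015), where 0.132% of all genes tested rose and 0.219% fell. That call was lost without Zizyphi 500 replicate 1 (edgeR adjusted p = 0.10) or replicate 2 (edgeR adjusted p = 0.12). Against Longan 500, of the same library set, NFKB2 was higher by 0.21 ± 0.06, which did not pass (edgeR adjusted p = 0.13); with no filter on low counts it did (edgeR adjusted p = 0.0046), as it did with those 6 libraries alone (edgeR adjusted p = 0.013). In this pair 0 of the 6 genes passed edgeR's test, 2 had an unadjusted p under 0.05 (CXCL2 and NFKB2) and DESeq2 called 0, while edgeR called 0.213% of all genes tested.

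The picked genes TNFAIP2 and BIRC3 also had their highest means in Zizyphi 500. TNFAIP2 was 374, 373 and 385 CPM there and 313, 315 and 325 CPM in Vehicle (log2 difference 0.25 ± 0.03). BIRC3 was 34.4, 39.3 and 34.5 CPM against 30.5, 25.9 and 31.1 CPM (0.31 ± 0.06). Neither gene overlapped with Vehicle there. Against Longan 500 the differences were 0.16 ± 0.03 for TNFAIP2 and 0.18 ± 0.06 for BIRC3, and per step of Zizyphi dose they were 0.08 ± 0.01 and 0.14 ± 0.03. CXCL3 had its lowest mean in Zizyphi 500, at 1.02, 1.11 and 0.937 CPM, below all 3 Vehicle libraries, and did not pass (-0.36 ± 0.21, edgeR adjusted p = 0.47). In Zizyphi 500 the alveolar sum (28.5 to 31 CPM) and the fibroblast sum (34.4 to 35.3 CPM) lay above Vehicle, and the blood and macrophage sum (1.89 to 2.34 CPM) lay below it. Their part in these levels was not tested.

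TNFAIP2 differed little in size across the groups, from a mean of 317 CPM in Vehicle to 378 CPM in Zizyphi 500. The Vehicle mean was the lowest of the 20, a place that Vehicle took for 4.84% of all genes tested, and 15 of the 19 treated groups lay above it without overlap, which 1.11% of all genes matched or exceeded. Within library sets the dose slopes of TNFAIP2 were between -0.02 and 0.08. BIRC3 had group means of 28.2 to 36.1 CPM, and 2 groups, Zizyphi 500 and Wortmannin, lay above Vehicle without overlap, near the median of 1 such group over all genes tested.

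In Wortmannin, TNFAIP3 was the 1 tested gene of the 6 that rose, where 18% of all genes tested rose and 19.4% fell. Its libraries held 6.99, 6.61 and 6.51 CPM, all above Vehicle, with a log2 change of 0.35 ± 0.10 (edgeR adjusted p = 0.0039). CXCL1 was 0.934, 1.18 and 1.86 CPM and overlapped Vehicle (0.46 ± 0.24, edgeR adjusted p = 0.13). Without Wortmannin replicate 1, the lowest of them, it passed at 0.67 (edgeR adjusted p = 0.038). CXCL2, at 1.63, 1.70 and 2.18 CPM, had its lowest group mean here, yet overlapped Vehicle (-0.25 ± 0.17, edgeR adjusted p = 0.26). CXCL3 (-0.27 ± 0.20), NFKBIA (-0.05 ± 0.06) and NFKB2 (0.06 ± 0.06) did not pass. The NFKBIA libraries, at 44.0, 43.4 and 44.0 CPM, nonetheless lay just below all 3 Vehicle libraries. The picked genes TNFAIP2 (364, 370 and 360 CPM) and BIRC3 (31.7, 31.7 and 35.0 CPM) differed from Vehicle by 0.20 ± 0.03 and 0.17 ± 0.06.

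In the same comparison the sum of 5 blood and macrophage markers was 4.12 to 4.91 CPM in Wortmannin and 2.47 to 2.61 CPM in Vehicle. That sum was carried by CD14, while PTPRC had 0 counts in 49 of the 60 libraries and at most 2 in any. The alveolar sum was 52.0 to 54.5 CPM against 25.9 to 26.4 CPM, carried by ABCA3, while SFTPA1 had 0 counts in 59 libraries. The epithelial sum (6030 to 6160 against 6300 to 6650 CPM) and the fibroblast sum (31.7 to 32.7 against 34.0 to 34.3 CPM) lay below Vehicle. The sum of the endothelial markers lay above it, at 0.296 to 0.394 against 0.121 to 0.286 CPM. The part of these markers in the CXCL8 and TNFAIP3 levels was not tested.

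**Figure D4:**
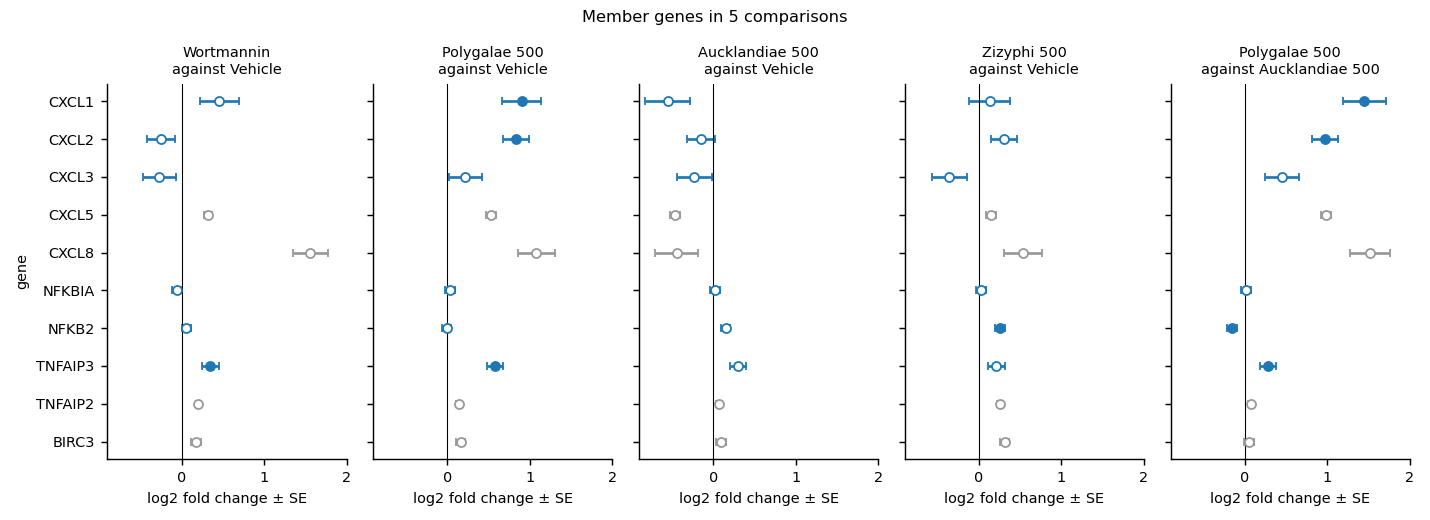
Fitted log2 differences (horizontal axes, with bars of 1 SE) of the 10 genes in 5 comparisons, those of Wortmannin, Polygalae 500, Aucklandiae 500 and Zizyphi 500 with Vehicle and that of Polygalae 500 with Aucklandiae 500. Filled blue points are tested genes that passed, open blue points are tested genes that did not, and open grey points are the 4 picked genes, which have no test. Polygalae 500 has 3 filled points (CXCL1, CXCL2 and TNFAIP3), Wortmannin and Zizyphi 500 have 1 each, and the pair of extracts has 4.

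In Liriopis, Schisandrae and Longan, 0 of the 6 tested genes passed edgeR's test against Vehicle at any dose. At 500, 100 and 20 µg/mL the share of all genes called was 0.00576%, 0.00576% and 0.0864% for Liriopis, 0.478%, 1.40% and 0.196% for Schisandrae, and 0.104%, 0.132% and 0.0173% for Longan. Of these 54 tests, 5 had an unadjusted p under 0.05, in NFKBIA or TNFAIP3, and DESeq2 called 0. Without Polygalae 20 replicate 1, which enters the shared estimate of the spread, edgeR called 34 to 997 genes in each of these 9 comparisons, against 1 to 244 with it, and 0 of the 6 passed there too. In fits of only the 6 libraries compared, edgeR called 529, 557 and 542 genes for Longan at 500, 100 and 20 µg/mL, against 18, 23 and 3. Those fits gave 224, 376 and 288 genes for Schisandrae and 0, 22 and 91 for Liriopis. With no filter on low counts, the 9 comparisons had 185 to 882 called genes. The lower doses of Zizyphi and Aucklandiae also gave 0 calls among the 6, where 0.599% (Zizyphi 100), 0.363% (Zizyphi 20), 2.04% (Aucklandiae 100) and 2.99% (Aucklandiae 20) of all genes were called. There 2 of 24 tests had an unadjusted p under 0.05, both in TNFAIP3, and DESeq2 called 0. Without Polygalae 20 replicate 1, edgeR called 235, 216, 700 and 960 genes in these 4 groups, against 104, 63, 355 and 520 with it, and 0 of the 6. The dose slopes of Liriopis, Schisandrae and Longan gave 0 calls as well, with 0.0461%, 0.0518% and 0.0345% of all genes called, 1 of 18 tests at an unadjusted p under 0.05 and 0 calls by DESeq2. Schisandrae 500 and Liriopis 500, which share a library set, differed in 0 of the 6, where 0.322% of all genes were called, with 0 at an unadjusted p under 0.05 and 0 by DESeq2. Without Polygalae 20 replicate 1 that pair had 200 called genes, against 56 with it, and 0 of the 6. The largest tested differences from Vehicle in these 3 extracts at 500 µg/mL were those of CXCL1 in Liriopis 500 (0.48 ± 0.25, edgeR adjusted p = 0.61) and TNFAIP3 in Longan 500 (0.31 ± 0.10, edgeR adjusted p = 0.20).

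TNFAIP3 lay above Vehicle without overlap in more groups than the other 5 tested genes. All libraries of 13 of the 19 treated groups lay above the highest Vehicle library (5.43 CPM), a count that 2.40% of all genes tested reached, while the median gene had 1 such group. CXCL2 had 3 such groups, NFKB2 2, CXCL1 1 and CXCL3 0. NFKBIA had 7 above and 2 below, and CXCL3 had 2 below. Because every one of these counts rests on the same 3 Vehicle libraries, they are not independent of each other.

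The other genes of the pathway came from a list of 84, in 6 roles, of which 60 were abundant enough to test. Most cytokine ligands were too low, among them TNF (0 counts in 57 of 60 libraries), IL1A, IL1B and IL6. In Wortmannin 13 of the 60 rose (21.7%) and 10 fell (16.7%), beside 18% and 19.4% of all genes tested. The receptor gene TLR3 had the largest rise (0.83 ± 0.34, edgeR adjusted p = 0.047) but stayed under 1 CPM in both groups. Above that level, the largest rises were in the monocyte chemokine CCL2 (4.46 ± 0.635 to 6.40 ± 0.328 CPM, SD), the adaptor TRAF1 (log2 change 0.45 ± 0.11) and the receptor CD40 (0.38 ± 0.15), with IRAK2 and PLAU also at 0.38 to 2 decimals. The largest falls were in ZC3H12A, an RNase that degrades cytokine transcripts (16.7 ± 0.218 to 11.9 ± 1.28 CPM, SD), GADD45B, a stress-response gene (-0.45 ± 0.07), and NFKBIB, which encodes IkB-beta (-0.43 ± 0.05). The edgeR adjusted p-values of these 6 were between 4.9e-10 and 0.038. Of the 4 NF-kB subunit genes tested, RELB rose (0.19) and RELA fell (-0.11).

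In Polygalae 500, 9 of the 60 rose (15.0%) and 8 fell (13.3%), beside 10.4% and 9.48% of all genes tested. LCN2, which encodes the iron-binding protein lipocalin-2, rose from 0.781 ± 0.212 to 1.43 ± 0.361 CPM (SD). NFKBIZ, an atypical IkB protein that acts in the nucleus, rose from 8.43 ± 1.08 to 13 ± 1.01 CPM, and the kinase gene MAP3K8 from 19 ± 0.647 to 26.2 ± 1.54 CPM. TNFRSF9 (-0.83 ± 0.25), the anti-apoptotic gene BCL2A1 (-0.66 ± 0.16) and GADD45B (-0.53 ± 0.08) fell. The edgeR adjusted p-values of these 6 were between 2.5e-08 and 0.014. None of the 4 subunit genes passed edgeR's test there.

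In Zizyphi 500, 1 of 60 rose, the plasminogen activator gene PLAU (0.21 ± 0.05, edgeR adjusted p = 0.014), and 3 fell, beside 0.898% and 0.915% of all genes tested. Among these, PTGS2, which encodes the inducible cyclooxygenase, went from 29.8 ± 1.3 to 19.1 ± 1.2 CPM (SD; edgeR adjusted p = 0.0029), and GADD45B and BCL2L1 fell by 0.31 and 0.14 on the log2 scale. In Aucklandiae 500, 3 rose and 3 fell, beside 2.24% and 2.69% of all genes tested, and 11 of the 60 were called without Polygalae 20 replicate 1. NFKBIE, another IkB gene (0.32 ± 0.10), TNIP2 (0.22 ± 0.06), whose product binds A20, and TRAF2 (0.17 ± 0.05) rose, while TNIP1, a second A20 partner (-0.20 ± 0.04), BCL2L1 (-0.20 ± 0.04) and the receptor gene LTBR (-0.11 ± 0.03) fell. These 6 had edgeR adjusted p-values of 0.00018 to 0.045. In Liriopis 500, Schisandrae 500 and Longan 500, 0 of the 60 passed edgeR's test, 6, 3 and 8 of them had an unadjusted p under 0.05, and DESeq2 called 0. The median log2 difference of the 60 genes was 0.00 in Wortmannin, Polygalae 500 and Aucklandiae 500 and 0.02 in Zizyphi 500, beside 0.008, 0.001, 0.002 and 0.002 over all genes tested.

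Across the 20 group means of log2 CPM, the picked chemokines CXCL5 and CXCL8 had a Pearson r of 0.78, and CXCL1 had an r of 0.73 with CXCL5 and 0.69 with CXCL2. TNFAIP2 and BIRC3 had an r of 0.80, and NFKBIA had none above 0.37 with any of the other genes. These are descriptions over 20 points that share library sets. Among the 17368 tested genes, with the 10 described here left out of the ranking, those most like CXCL8 were DKK3 (r = 0.87), CDCP1 (0.86) and TMEM158 (0.86). CDCP1, a surface glycoprotein, was 6.80 ± 0.473 CPM in Vehicle, 14.6 ± 1.16 CPM in Wortmannin and 4.93 ± 0.524 CPM in Aucklandiae 500 (SD). Those most like CXCL5 were DTX3 (0.93), RHCG (0.93) and SOCS5 (0.91). RHCG, an ammonium transporter gene, was 3.75 ± 0.376 CPM in Vehicle, 7.18 ± 0.896 CPM in Polygalae 500 and 2.41 ± 0.278 CPM in Aucklandiae 500. Those most like TNFAIP2 were BDKRB2 (0.87), SEMA4F (0.84) and STAT5B (0.84), and those most like BIRC3 were CLMN (0.84), BTN3A1 (0.81) and LPIN3 (0.76).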

How the data were processed

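Expected counts (RSEM's estimated fragment counts per gene, not scaled for depth) were deposited by the authors for 60 A549 libraries. STAR 2.7.3a and RSEM 1.3.3 with GRCh38, after FastQC 0.11.9 and Trim Galore 0.6.5, are listed in the submitters' processing notes. Per the labels' protocols, libraries came from a directional kit, RNA with an integrity number above 7 and paired-end reads of 100 bases. Annotation release and strand setting: not given in the sources used here. Of the values, 10.7% were not whole, and all were rounded. Symbols came from the reference table for 56558 genes and from GENCODE 29 for 497.

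With edgeR 4.0.16 (R 4.3.3), filterByExpr over 20 groups kept 17368 genes, libraries were TMM-scaled, and a robust quasi-likelihood model with 1 mean per group was fitted to all 60 libraries. It gave 19 comparisons with Vehicle and 3 pairs of extracts within a library set. Dose slopes (20, 100 and 500 µg/mL as 0, 1 and 2) used each extract's 9 libraries with the same genes and scaling. Tests were two-sided, with Benjamini-Hochberg adjustment over all genes of a comparison and a threshold of 0.05. CPM used TMM-scaled depth, and log2 CPM a prior count of 2. The code was tested on simulated data. Replicates had Pearson correlations of 0.985 to 0.993, and none looked like a copy (chi-square per degree of freedom 2.03 to 25.3).

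The member genes and the pathway list were chosen with earlier results of these data known. Named pathway genes are the 3 largest rises and 3 largest falls that passed with a mean of at least 1 CPM in either group, in Wortmannin and each extract at 500 µg/mL. For each picked gene, the 3 tested genes outside the member genes with the highest Pearson r over group means are named. Alternatives were DESeq2 1.42.0, its size factors in edgeR, no filter, a replicate block, only the 6 libraries compared, a slope from all 60 libraries, the sum of CXCL1, CXCL2 and CXCL3, and leaving out single libraries.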

Additional observations from a re-analysis of the deposited data

Results flagged for a closer look

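Polygalae and Aucklandiae at 500 µg/mL, which share a library set, differed from each other by edgeR's test of the difference in 4 of the 6 tested genes. The log2 differences, Polygalae minus Aucklandiae, were 1.45 for CXCL1, 0.97 for CXCL2, 0.28 for TNFAIP3 and -0.16 for NFKB2. The CXCL1 and CXCL2 differences passed in each of the 6 fits with 1 library of the pair left out, while that of TNFAIP3 passed in 1 of them and that of NFKB2 in 0. With 3 libraries a group, no gene was tested for a single outlying library.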

How the results depend on the processing

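Counts of calls among the 6 tested genes moved as follows. For Polygalae 100 against Vehicle, 1 became 0 with no filter, the replicate block, DESeq2 or the 6 libraries alone. For Polygalae 20, 1 became 0 with the 6 libraries alone and without replicate 1, an alternative added after seeing the data. For Aucklandiae 500, 0 became 2 with the 6 libraries alone, and for Zizyphi 500 against Longan 500, 0 became 1 with no filter and with the 6 libraries alone. For Polygalae 500 against Aucklandiae 500, 4 became 3 with no filter and with DESeq2. With 1 library left out, counts ranged from 2 to 3 for Polygalae 500 against Vehicle, 1 to 2 for Wortmannin, 0 to 1 for Zizyphi 500, 2 to 4 for Polygalae 500 against Aucklandiae 500, and 0 to 1 for the Zizyphi and Polygalae slopes. Counts of pathway genes went from 0 to 1 for Liriopis 500 with no filter. With the 6 libraries alone they went from 0 to 2 for Longan 500, from 4 to 8 for Zizyphi 500 and from 6 to 12 for Aucklandiae 500. With 1 library left out they ranged from 1 to 4 for Zizyphi 500 and from 2 to 11 for Aucklandiae 500, where 11 came without Polygalae 20 replicate 1. The cause was not tested. Leaving out Polygalae 20 replicate 1 also moved the number of all genes called, as given in the report. Replicate numbers did not pair the libraries of treated groups with Vehicle, or those of the 3 extract pairs (correlations of deviations -0.05 to 0.09). Pairing between doses of the same extract was not checked. Beside the Polygalae 100 call of TNFAIP3, the replicate block changed no other call among the 6 tested genes. Over all genes the block moved the count from 315 to 341 for Zizyphi 500 and from 18 to 34 for Longan 500. For the dose slopes it went from 858 to 701 in Polygalae, from 61 to 96 in Zizyphi and from 168 to 230 in Aucklandiae. Among the 6 tested genes, no difference that passed in the main fit or in an alternative reversed its direction. Reversals in the picked genes, and of differences that passed in neither fit, were not counted. Depth limits CXCL1, CXCL2, CXCL3 and CXCL8, with at most 90 counts in a library.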
